A study of Mus musculus with 24 samples.

Results

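The comparison described here is that of sham-operated mice given the peptide NaKtide with sham-operated mice given green fluorescent protein (GFP), which asks what NaKtide does in fat tissue without renal failure. Its members were the libraries whose labels give a sham operation and either protein, 6 NaKtide and 6 Control, and they make up 12 of the 24 libraries of the series. The genes were those whose 24 libraries together held more than 10 counts, 26116 of the 54232 genes in the table. RNA was sequenced from adipose tissue of C57BL6 mice, aged 10 weeks by the description of the series, 6 mice in each of 4 groups and 1 library per mouse. The other 12 mice had most of their kidney mass removed (PNx) and received the same viruses. All mice, Control included, received 100 µL of lentivirus into the peritoneal cavity, in which the adiponectin promoter drove either protein. In NaKtide mice the virus encoded NaKtide, and the methods of the study describe visceral fat as the tissue and male mice as the animals. A tissue sample holds vessels, blood and connective tissue beside adipocytes, in which the promoter is active, and no row for either transgene was analysed here, so the expression of NaKtide and of GFP was not checked.

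NaKtide is a short peptide whose sequence comes from the sodium pump of the plasma membrane, the Na,K-ATPase. The pump binds the tyrosine kinase Src, and when it is stimulated the bound kinase becomes active and starts a cascade that produces reactive oxygen species, which act on the pump again. NaKtide binds the kinase domain of Src and is meant to break this loop, and adipocytes are known as a source of adipokines that respond to oxidant stress.

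The promoter that drives both transgenes is that of adiponectin (Adipoq), the most typical secreted protein of fat cells, so the level of the mouse's own Adipoq mRNA was examined in each library. The 250 bases before its annotated start (RefSeq, GRCm38.p6, chr16:23146286-23146535, plus strand) are shown because both arms of the comparison depend on this region. Capitals mark the letters CCAAT read on either strand.
Adipoq: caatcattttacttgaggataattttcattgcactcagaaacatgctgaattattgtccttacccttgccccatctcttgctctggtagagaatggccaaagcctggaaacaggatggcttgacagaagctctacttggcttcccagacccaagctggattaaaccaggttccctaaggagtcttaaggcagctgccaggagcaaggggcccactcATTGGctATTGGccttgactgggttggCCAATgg
The window held 3 such matches, the first bases of which lay at -34, -27 and -7 from the start. Of 32817 promoter windows of the same length, 33.8% held the motif on either strand and 2.67% held at least as many matches. A match of letters is a description of the sequence and not a binding site.

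Adipoq stood at 37.1, 30.5, 10.7, 6.42, 45 and 56.2 CPM (counts per 1000000 counts of a library, after normalisation of library sizes by trimmed means) in Control replicates 1 to 6. In NaKtide replicates 1 to 6 it stood at 28.4, 23.2, 23.0, 13.3, 27.6 and 166 CPM. The groups overlapped, and NaKtide replicate 6 alone lay above the highest Control library. The log2 fold change of NaKtide over Control was 0.60 ± 0.78 (SE, adjusted p = 1.0 in edgeR), and without NaKtide replicate 6 it was -0.42 ± 0.74 (SE, adjusted p = 1.0). In bulk tissue, fewer cells of a type and less RNA per cell cannot be told apart.

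The libraries held 679250 to 2366069 counts, so that 3 counts, taken as the limit of detection, corresponded to 1.27 to 4.42 CPM. Control libraries had 1874068 ± 271775 counts (SD, n = 6) and NaKtide libraries 1389441 ± 476221 counts (SD, n = 6), and an exact two-sided permutation test gave p = 0.0584, or 0.147 after adjustment for 4 library measures. Genes overlapped by exons of another gene on the opposite strand took 80.6% of the counts in Control and 79.9% in NaKtide, although they hold 27.4% of exon bases, and whether counting respected the strand is not given in the sources used here. Reads of a partner gene may thus be counted in the value of a gene, and the main partners of the leading genes are named below. The strand that was counted is unknown for genes without a partner as well, so their values may not be plain mRNA levels. This was not tested. NaKtide replicate 6 stood apart in tissue markers. Its skeletal muscle list summed to 7517 CPM against 293 to 542 CPM in the other 11 sham libraries, its adipocyte list to 5046 CPM against 264 to 772 CPM, its endothelium list to 572 CPM against 118 to 255 CPM and its epididymis list to 41.4 CPM against 1341 to 3240 CPM. The part of these markers in the results was not tested, and values without this library are given beside the list medians and most of the leading genes. The epididymis list stood above the adipocyte list in the other 11 libraries. No tested gene of the adipocyte list was at 0 in all sham libraries, but this held for every marker list and does not set the adipocyte list apart.

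**Figure D1:**
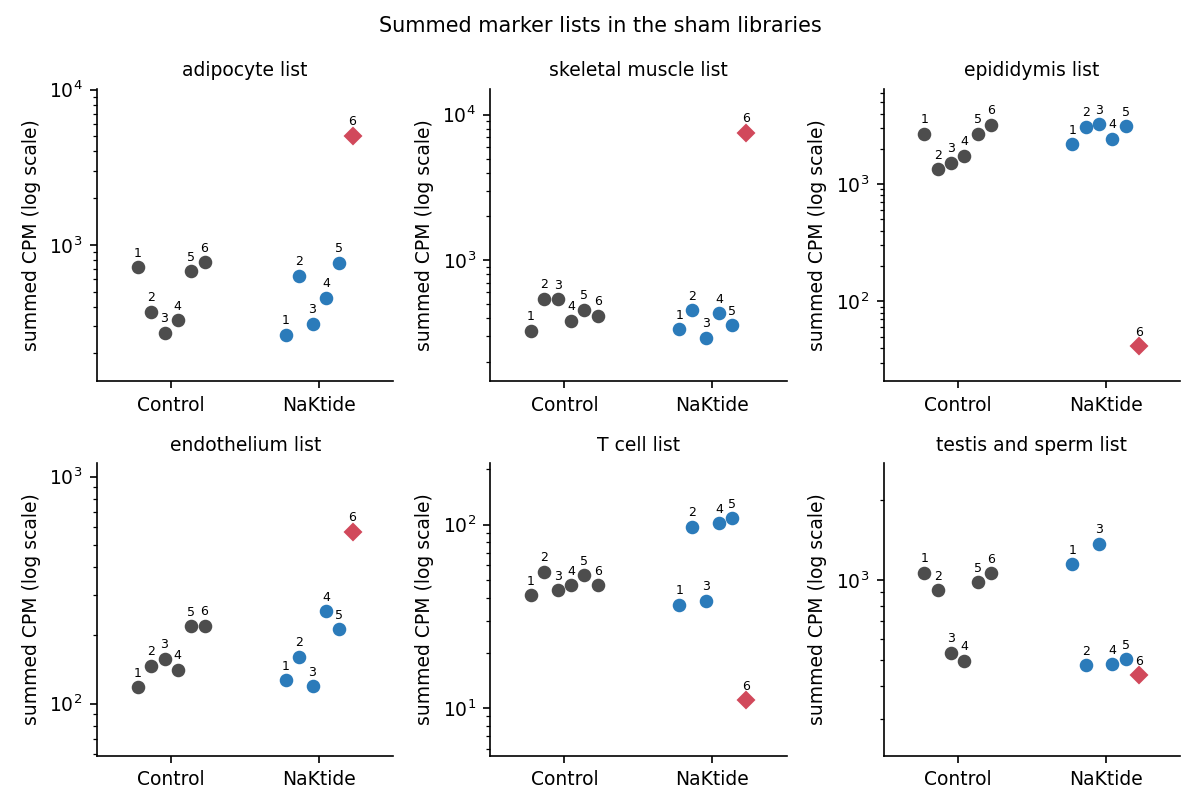
Summed CPM (log scale) of 6 marker lists in each sham library, Control in grey and NaKtide in blue, with replicate numbers beside the points and NaKtide replicate 6 as a red diamond. NaKtide replicate 6 lies at 7517 CPM for skeletal muscle and 41.4 CPM for epididymis, far from the other libraries. NaKtide replicates 2, 4 and 5 lie at 97.5, 102 and 108 CPM for the T cell list, above the 6 Control libraries. Of the 7 genes tested in that list, 1 had a mean of at least 5 CPM.

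No gene passed the threshold in edgeR. In its quasi-likelihood test 0 of 26116 genes (0.0%) had a Benjamini-Hochberg adjusted p under 0.1, and the smallest adjusted p, shared by 37 genes, was 0.629. An unadjusted p under 0.05 was reached by 1031 genes (3.95%), with 532 (2.04%) higher and 499 (1.91%) lower in NaKtide. With the size factors of DESeq2 in place of the trimmed mean the split was 772 higher and 444 lower, still with 0 adjusted calls. DESeq2 called 3 genes (0.0115%) and limma voom with sample weights 2 genes (0.00766%), described below. Without NaKtide replicate 6 edgeR gave 782 genes at an unadjusted p under 0.05 (2.99%), 351 higher (1.34%) and 431 lower (1.65%), and again 0 adjusted calls.

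Over all genes, the median log2 fold change was 0 and the median standard error of a log2 fold change was 0.76. It was 1.11 for genes up to 1 CPM and 0.40 for genes above 100 CPM. For 2235 genes the 95% interval lay within a 2-fold difference in either direction, and for 12486 genes within a 4-fold difference. A p above the threshold thus leaves differences of these sizes possible for most genes. The NaKtide libraries were also less alike than the Control libraries, with a median Spearman correlation of 0.797 (0.817 without replicate 6) against 0.880. A library lay apart from the other 5 of its group by a distance, taken as the typical (median) gene's unsigned log2 CPM deviation from the middle of those 5, of 0.539 ± 0.117 (SD, n = 6) in NaKtide and 0.445 ± 0.0309 (SD, n = 6) in Control. This difference did not pass an exact two-sided permutation test (p = 0.0736, adjusted p = 0.147). Neither the correlation nor the distance was taken at a common depth, and NaKtide libraries held fewer counts on average. The part of depth in both was not tested.

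**Figure D2:**
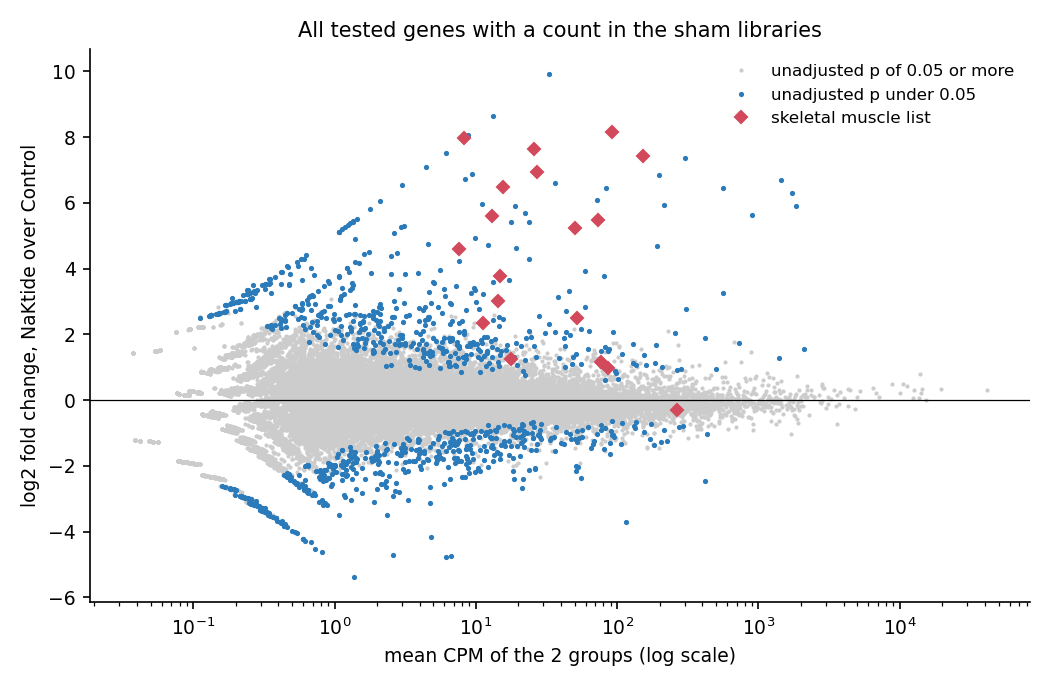
Log2 fold change of NaKtide over Control against the mean CPM of both groups (log scale) for each tested gene with a count in the sham libraries, with the 1031 genes at an unadjusted p under 0.05 in blue and the 18 genes of the skeletal muscle list as red diamonds. The muscle genes make up many of the largest positive values at middle levels, and the spread of grey points narrows as the level rises.

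The proteins that NaKtide is built from and aimed at were examined first. Src itself (ENSMUSG00000027646, chromosome 2, 157418444 to 157471862 of GRCm38) stood at 4.50 to 11.1 CPM in Control, with a median of 7.86, and at 4.50 to 11.9 CPM in NaKtide, with a median of 5.98. The groups overlapped along their whole ranges. The difference was -0.19 ± 0.46 on the log2 scale (SE, edgeR adjusted p = 1.0), with a 95% interval from -1.13 to 0.74. Csk, the kinase that switches Src off, averaged 4.85 ± 2.05 CPM in Control and 7.47 ± 2.99 CPM in NaKtide (SD, n = 6 each), a log2 fold change of 0.62 ± 0.60 (SE, adjusted p = 1.0 in edgeR). Of the 14 genes of the Src family list, 0 were at an unadjusted p under 0.05 in either direction, beside 3.95% of all genes, and their median log2 fold change was -0.12 beside 0 for all genes. The list of Src downstream genes, with 23 members tested, likewise had 0, with a median of 0.23. Both lists again had 0 without NaKtide replicate 6, with medians of -0.062 and 0.16.

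Among the genes of the sodium pump, the beta subunit Atp1b1, which shares 575 exon bases with Nme7 on the opposite strand, ranged from 53.7 to 99.6 CPM in Control and from 35.6 to 65.8 CPM in NaKtide. It lay below the lowest Control library in 5 of 6 NaKtide libraries, with a log2 fold change of -0.63 ± 0.36 (SE, adjusted p = 1.0 in edgeR). Leaving out NaKtide replicate 6 gave -0.55 ± 0.38. Atp1b3 and the regulator Fxyd1 had log2 fold changes of -0.20 and 0.038 with standard errors of 0.54 and 0.61. Of the 12 genes of the pump list described here, 1 was at an unadjusted p under 0.05, Atp1b2, which stood at no more than 0.669 CPM in Control and 4.53 CPM in NaKtide, the latter in replicate 6. The median log2 fold change of these genes was -0.08, and -0.37 without NaKtide replicate 6. With the size factors of DESeq2 the former was 0.026 and with DESeq2 0.039.

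The other genes of the signalling scheme had wide errors as well. Creb1, a transcription factor, averaged 5.5 ± 2.31 CPM in Control and 3.61 ± 2.58 CPM in NaKtide (SD, n = 6 each), with a log2 fold change of -0.62 and a standard error of 0.44. Nos3, the endothelial nitric oxide synthase, which shares 1040 exon bases with Gm15587, ranged from 5.25 to 32.7 CPM in Control and from 5.91 to 53.6 CPM in NaKtide. Cdkn1a, the cell cycle inhibitor p21, which shares 273 exon bases with AC167363.2, had a log2 fold change of 0.39 with a standard error of 0.70. Prkca, Chuk and Tlr4 had mean levels of at most 1.21 CPM in both groups and cannot be compared at this depth. All of these genes had an edgeR adjusted p of 1.0.

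**Figure D3:**
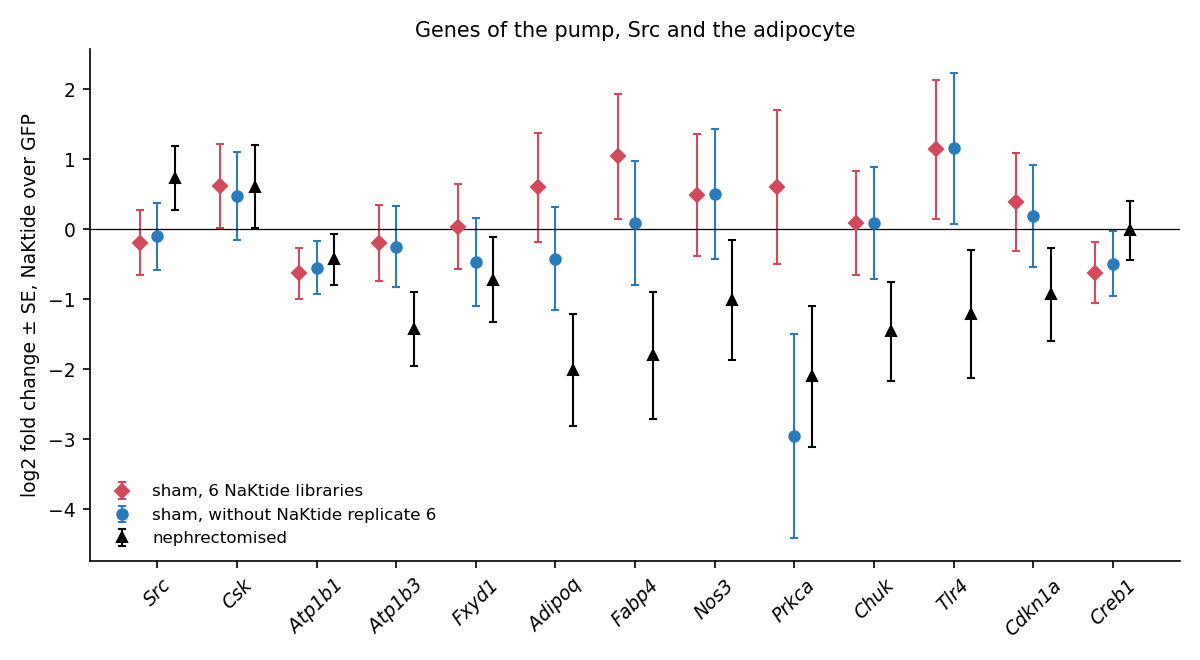
Log2 fold change with its standard error (bars) of NaKtide over GFP for 13 genes, in sham mice with 6 NaKtide libraries (red diamonds), in sham mice without NaKtide replicate 6 (blue circles) and in nephrectomised mice (black triangles). Adipoq turns from 0.60 to -0.42 without that library, and Src stays close to 0 in both sham fits.

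The oxidant defence programme under the transcription factor NRF2 held 0 adjusted calls. Of its 29 genes tested, 1 was higher and 2 were lower at an unadjusted p under 0.05, beside 2.04% and 1.91% of all genes, and the median was 0.068. These counts were 0 and 2 without NaKtide replicate 6, with a median of 0.059. Srxn1, sulfiredoxin, which restores oxidised peroxiredoxins, stood at 57.6, 56.5, 49.1, 65.3, 27.1 and 26.1 CPM in Control replicates 1 to 6 and at 31.5, 23.2, 36.3, 12.1, 13.8 and 3.88 CPM in NaKtide replicates 1 to 6. It lay below the lowest Control library in 4 of 6 NaKtide libraries. NaKtide differed from Control by a log2 fold change of -1.20 ± 0.47 (SE, unadjusted p = 0.017, adjusted p = 1.0 in edgeR), and without NaKtide replicate 6 it was -0.98 with a standard error of 0.45. Prdx4, a peroxiredoxin of the secretory pathway, ranged from 6.69 to 15.4 CPM in Control and from 0 to 9.78 CPM in NaKtide, with a log2 fold change of -1.20 ± 0.47 (SE, unadjusted p = 0.0169, adjusted p = 1.0 in edgeR). Slc7a11, the cystine importer that feeds glutathione synthesis, ranged from 75.7 to 119.6 CPM in Control and from 67.0 to 590.3 CPM in NaKtide. The difference was 1.07 ± 0.51 (log2, SE, adjusted p = 1.0 in edgeR) and 0.44 ± 0.47 without NaKtide replicate 6, which holds the highest value. Nqo1 and Hmox1, the usual reporters of NRF2, were at 3.74 and 1.48 CPM in NaKtide and 3.5 and 0.853 CPM in Control on average. Of 11 NADPH oxidase genes tested, 0 were at an unadjusted p under 0.05, and the median was 0.025, or 0.24 without NaKtide replicate 6.

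The medians of the fat cell lists were above that of all genes with 6 NaKtide libraries, and without replicate 6 all but that of the adipogenic regulators were below 0. The median log2 fold change was 1.09 for 21 genes of lipid storage and lipolysis, 0.93 for 17 genes of lipogenesis, 0.77 for 15 adipokines, 0.80 for 16 adipogenic regulators and 0.89 for 21 matrix genes. Without NaKtide replicate 6 these medians were -0.084, -0.033, -0.24, 0.14 and -0.26. Of the 21 lipid storage genes, 20 had their highest value in that library. Plin1, the coat protein of the lipid droplet, ranged from 8.28 to 29.4 CPM in Control and from 6.76 to 37.4 CPM in NaKtide replicates 1 to 5, and stood at 398 CPM in replicate 6. Lep, leptin, ranged from 5.25 to 10.5 CPM in Control and stood at 2.70, 12.6, 9.08, 19.4, 31.5 and 105 CPM in NaKtide replicates 1 to 6. A log2 difference of 1.95 ± 1.09 (SE, adjusted p = 1.0 in edgeR) became 0.89 ± 1.09 without replicate 6. In these lists 2 genes were at an unadjusted p under 0.05, both higher, Ebf2 and Me1, the malic enzyme that supplies NADPH. Me1 had a log2 fold change of 1.83 (SE 0.82) that became 0.48 (SE 0.78) without replicate 6.

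The remaining lists held few genes at an unadjusted p under 0.05. Inflammation genes (20 tested) had a median of 0.069 with 1 gene lower, Il1b, which ranged from 0.669 to 9.51 CPM in Control and from 0 to 1.97 CPM in NaKtide and shares 25 exon bases with Il1bos. Interferon response genes (19 tested) and heat shock genes (20 tested) had 0, with medians of 0.051 and -0.05. Without NaKtide replicate 6 the inflammation, interferon and heat shock lists had medians of -0.087, -0.14 and 0.071 and 0 genes at an unadjusted p under 0.05. The lists of insulin and glucose genes (14 tested) and of mitochondrial and thermogenic genes (23 tested) had medians of 0.47 and 0.37, and -0.25 and 0.10 without NaKtide replicate 6. In the latter list Cox8b, a muscle-type subunit of cytochrome oxidase, was the 1 gene at an unadjusted p under 0.05.

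**Figure D4:**
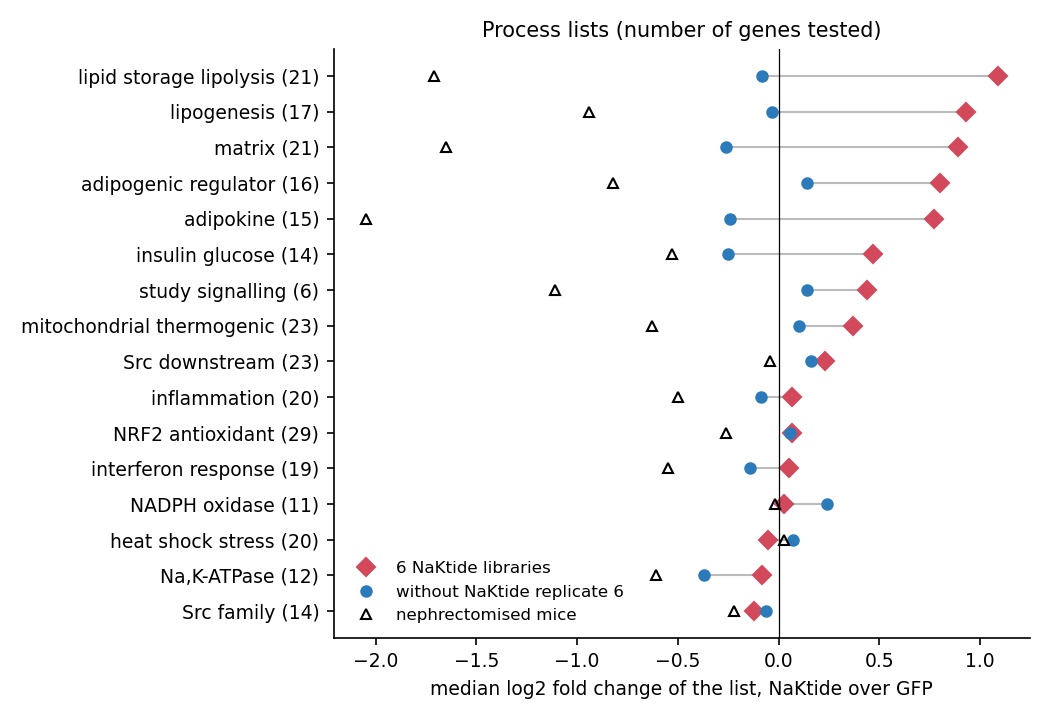
Median log2 fold change of NaKtide over GFP for 16 process lists, with the number of genes tested in brackets, in sham mice with 6 NaKtide libraries (red diamonds), in sham mice without NaKtide replicate 6 (blue circles) and in nephrectomised mice (open triangles). Lists of fat cell genes such as lipid storage move from 1.09 to -0.084 when that library is left out, whereas the Src family and NRF2 lists stay close to 0.

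The higher genes of smallest p were mostly genes of skeletal muscle, and NaKtide replicate 6 held the high values. Of the 532 higher genes 285 (53.6%) had their highest NaKtide value in replicate 6, and 235 kept an unadjusted p under 0.05 in the same direction without it. Of the 18 genes of the skeletal muscle list 15 were higher at an unadjusted p under 0.05, with a median log2 fold change of 4.93, and 0 without replicate 6, with a median of -0.21. Myh4, a fast myosin heavy chain (ENSMUSG00000057003, chromosome 11, 67238029 to 67260446), ranged from 0 to 6.02 CPM in Control and from 0 to 1.97 CPM in NaKtide replicates 1 to 5, and stood at 1819 CPM in replicate 6. Tnnt3, fast troponin T, stood at 1096 CPM there and at no more than 2.01 CPM in the other sham libraries. Tnni2 and Acta1, also proteins of the contractile machinery, and the muscle gene Trdn showed the same pattern. They stood at 307, 323 and 131 CPM in that library and at most 2.42 CPM in the others. Myh8 and the muscle glycogen phosphorylase Pygm differed by 3.66 ± 0.95 and 4.71 ± 1.24 (log2, SE, adjusted p = 0.629 in edgeR for both), and by 0.50 ± 0.64 and 0.017 ± 0.69 without it.

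Of the higher genes with an opposite-strand partner, Rabep2, which encodes a binding protein of a Rab GTPase, had a muscle gene as its partner. It ranged from 44.1 to 85.1 CPM in Control and from 45.4 to 69.0 CPM in NaKtide replicates 1 to 5, and it stood at 21606 CPM in replicate 6. On the opposite strand it shares 763 exon bases with Atp2a1, the calcium pump of fast muscle, which stood at 422 CPM in that library and at 34.4 to 53.8 CPM in the others. Myh7, Tnnc2 and Ryr1, all muscle genes whose main partners are Gm31251, Ube2c and Gm26604, also led among the overlapping genes, with 145, 185 and 109.9 CPM in replicate 6 and at most 4.19 CPM elsewhere. Of these partners, Ube2c, opposite to Tnnc2, averaged 27.5 CPM in Control and 2875 CPM in NaKtide. Its log2 fold change was 6.71 ± 2.01 (SE, adjusted p = 0.814 in edgeR).

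Among the leading higher genes without an overlap, the 1 gene that is not of muscle was mt-Nd3, a subunit of respiratory complex I encoded by the mitochondrial genome (ENSMUSG00000064360, positions 9459 to 9806). It stood at 6.03, 14.5, 20.1, 5.25, 11.1 and 26.8 CPM in Control replicates 1 to 6 and at 47.7, 62.3, 8.38, 92.0, 49.2 and 93.7 CPM in NaKtide replicates 1 to 6. In 5 of 6 NaKtide libraries it lay above the highest Control library, and replicate 3 lay within the Control range. On the log2 scale the change was 2.08 ± 0.53 (SE, unadjusted p = 0.000526, adjusted p = 0.629, edgeR), and 1.89 with a standard error of 0.54 without NaKtide replicate 6 (adjusted p = 1.0). Of the 13 mitochondrial mRNAs, looked at after this value was seen, 12 were higher in NaKtide and 4 were at an unadjusted p under 0.05, namely mt-Nd3, mt-Atp8, mt-Atp6 and mt-Nd5, beside 2.04% of all genes that were higher. The gene for which this set was opened, mt-Nd3, is counted in both numbers, so they are not independent support. The median of the 13 was 0.51, beside 0 for all genes, and without replicate 6 it was 0.33 with 3 genes at an unadjusted p under 0.05. In nephrectomised mice the median was -0.21. Another mitochondrial mRNA, mt-Nd6, held 6004 to 12091 raw counts in the Control libraries and 5518 to 12794 in the NaKtide libraries. The strand that was counted is not given, and reads of mitochondrial genes can be shared with nuclear copies. The mitochondrial values are thus uncertain, and the part of the strand was not tested.

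Without NaKtide replicate 6 the higher genes had their high values in the 2 libraries of lowest depth. Of the 118 genes with a mean of at least 5 CPM that were then higher at an unadjusted p under 0.05, 96 (81.4%) had NaKtide replicates 4 and 5 as their 2 highest NaKtide libraries, against 9.93% of the 10605 genes at this level. Replicates 4 and 5 held 1127363 and 679250 counts. Ubn2 stood at 25.1 to 53.1 CPM in Control, at 139 and 289 CPM in NaKtide replicates 4 and 5, and at 26.1 to 125 CPM in the other NaKtide libraries. Spop, an adaptor of a ubiquitin ligase, ranged from 17.2 to 28.6 CPM in Control and stood at 92.0 and 102 CPM in replicates 4 and 5. Idi1, an enzyme of cholesterol synthesis that shares 323 exon bases with Gm48574, ranged from 2.96 to 6.03 CPM in Control and stood at 38.7 and 92.5 CPM in these libraries, with at most 8.38 CPM in the other NaKtide libraries. Tuba1c and Tuba1b, near-identical tubulin genes that can share reads, reached 179 and 264 CPM in replicate 5 against at most 36.8 and 48.2 CPM in Control. In the same libraries the T cell list stood at 102 and 108 CPM against 41.3 to 55.5 CPM in Control. Of its 7 genes tested, 1 had a mean of at least 5 CPM. The median log2 fold change of that list was 0.15, or 0.35 without NaKtide replicate 6. The endothelium list stood at 255 and 213 CPM against 118 to 220.2 CPM. The part of depth and of these markers in the values of the higher genes was not tested.

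Of the 499 genes that were lower in NaKtide, 295 kept an unadjusted p under 0.05 in the same direction without replicate 6. H2-T24, a non-classical class I gene of the major histocompatibility complex with close paralogs (ENSMUSG00000053835, chromosome 17, 36005695 to 36020560), had the smallest p of those without an overlap. It stood at 19.5, 32.5, 30.8, 15.2, 4.94 and 4.02 CPM in Control replicates 1 to 6 and at 2.42 to 8.11 CPM in NaKtide. The groups overlapped through Control replicates 5 and 6. The difference was -1.82 ± 0.52 on the log2 scale (SE, adjusted p = 0.722 in edgeR), and -1.67 with a standard error of 0.55 without NaKtide replicate 6.

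Pfas, an enzyme of purine synthesis (ENSMUSG00000020899, chromosome 11, 68985697 to 69008460), was one of the leading genes whose groups did not overlap. It ranged from 8.03 to 20.4 CPM in Control, with a median of 12.1, and from 3.23 to 7.68 CPM in NaKtide, with a median of 5.98. NaKtide differed from Control by a log2 fold change of -1.18 ± 0.38 (SE, adjusted p = 0.954 in edgeR), and -1.05 with a standard error of 0.40 without NaKtide replicate 6. Slc22a4, a carrier of organic cations and ergothioneine (ENSMUSG00000020334, chromosome 11, 53983123 to 54028090), stood at 31.6, 59.5, 55.0, 47.8, 36.4 and 28.8 CPM in Control and at 25.2, 0.663, 21.6, 1.21, 3.94 and 5.17 CPM in NaKtide replicates 1 to 6. Every NaKtide library lay below every Control library, yet replicates 1 and 3 stayed near the Control range and the others lay close to the limit of detection. On the log2 scale the change was -2.09 ± 0.68 (SE, adjusted p = 0.954, edgeR), and -1.95 ± 0.72 without NaKtide replicate 6.

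The same pattern recurred in other lower genes. Slc46a1, the intestinal folate transporter, ranged from 41.8 to 62.7 CPM in Control and stood at 42.3 and 30.7 CPM in NaKtide replicates 1 and 3 and at 5.17 to 14.6 CPM in the other NaKtide libraries. Olfr543, an olfactory receptor gene, ranged from 19.4 to 70.5 CPM in Control and stood at 27.5 and 24.4 CPM in replicates 1 and 3 and at 1.21 to 1.97 CPM in the others. Selp, P-selectin of platelets and endothelium, which shares 438 exon bases with Gm16548, ranged from 6.50 to 10.1 CPM in Control and stood at 4.96 and 5.59 CPM in replicates 1 and 3 and at no more than 1.21 CPM in the others. Of the 203 lower genes with a mean of at least 5 CPM at an unadjusted p under 0.05, 113 (55.7%) had NaKtide replicates 1 and 3 as their 2 highest NaKtide libraries, against 23.6% of the 10605 genes at this level. The testis and sperm marker list split the NaKtide libraries in the same way. It stood at 1146 and 1369 CPM in NaKtide replicates 1 and 3 and at 439 to 504 CPM in the other NaKtide libraries. In Control replicates 1 to 6 it stood at 1065, 915, 534, 498, 983 and 1059 CPM. Within Control the list was thus lowest in replicates 3 and 4, in which Slc22a4, given by library above, was not low. The part of this list in the lower genes was not tested.

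Further leading lower genes were Ptpro, a receptor tyrosine phosphatase, with a log2 fold change of -1.89 (SE 0.67), and the receptor Gpr20 with -1.94 (SE 0.70). They were -1.70 (SE 0.69) and -1.67 (SE 0.67) without NaKtide replicate 6. For Zfp260 the difference of -2.55 (SE 0.88) rested on Control replicate 6, which stood at 50.9 CPM against 1.5 to 4.18 CPM in the other Control libraries. Among genes with an opposite-strand overlap, Pigp, of the glycolipid anchor pathway, had -1.31 (SE 0.44), the Mediator subunit Med15 -0.91 (SE 0.33) and the acyltransferase Agpat1 -0.92 (SE 0.34). Med15 shares 223 exon bases with Gm18335. Pigp shares 326 exon bases with Ttc3 and Agpat1 shares 101 with Egfl8, and these partners had log2 fold changes of -0.21 (SE 0.45) and 0.12 (SE 0.27). For these genes the edgeR adjusted p was 0.971 for Pigp and 1.0 for the others.

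**Figure D5:**
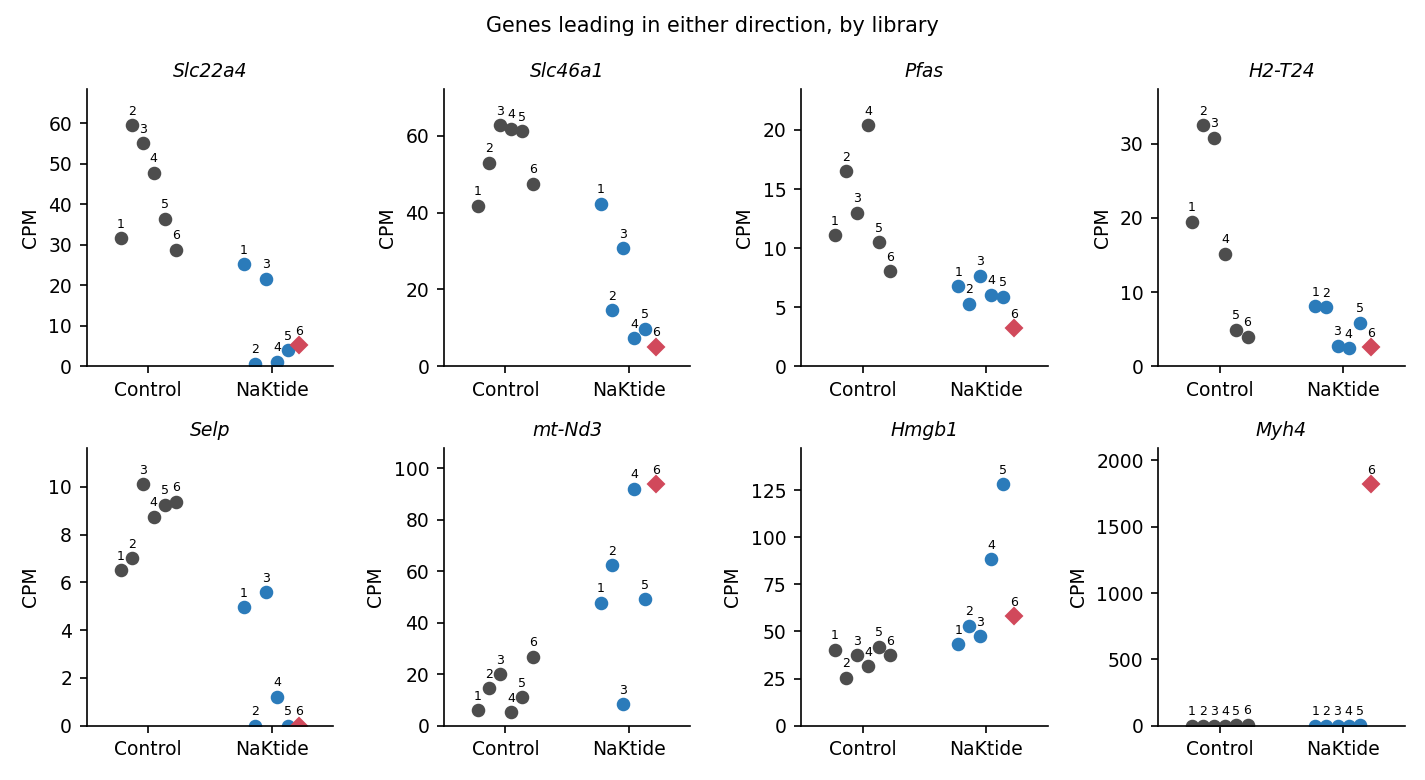
CPM of 8 genes in each sham library (linear axes from 0), Control in grey and NaKtide in blue with replicate numbers, NaKtide replicate 6 as a red diamond. Slc22a4, Slc46a1 and Selp are near the Control range in NaKtide replicates 1 and 3 and low in the others, mt-Nd3 is high in all NaKtide libraries but replicate 3, and Myh4 is at 1819 CPM in replicate 6 and at most 6.02 CPM elsewhere.

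Groups without overlap were rare. In 12 genes (0.0459%) every NaKtide library lay above every Control library, and in 70 genes (0.268%) below. With a mean of at least 5 CPM these were 8 and 33 genes. Hmgb1, an abundant chromatin protein with many pseudogenes, ranged from 25.5 to 41.9 CPM in Control and from 43.2 to 128 CPM in NaKtide. Triobp, an actin-binding protein that shares 93 exon bases with Gm10865, ranged from 7.51 to 19.1 CPM in Control and from 20.6 to 24.6 CPM in NaKtide. On the lower side, Irf9, the DNA-binding part of the interferon-stimulated factor ISGF3, ranged from 68.3 to 127 CPM in Control and from 3.88 to 64.0 CPM in NaKtide. Tnip1, an inhibitor of NF-kB signalling, ranged from 82.3 to 113 CPM in Control and from 3.94 to 71.2 CPM in NaKtide. Their log2 fold changes were -1.20 (SE 0.71) for Irf9 and -1.40 (SE 0.69) for Tnip1, or -0.96 (SE 0.69) and -1.26 (SE 0.73) without NaKtide replicate 6, and both had a BH-adjusted p of 1.0. Hmgb1, Triobp, Irf9 and Tnip1 were chosen after their values were seen.

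The genes called by other tools were few. Gm11408, a predicted gene on chromosome 4 (80003396 to 80003914), was called by DESeq2 and by voom. It ranged from 0.50 to 3.35 CPM in Control and stood at 15.3, 4.64, 12.6, 13.3, 59.1 and 3.23 CPM in NaKtide replicates 1 to 6, so that 5 of 6 lay above the highest Control library. In edgeR it differed by 3.34 on the log2 scale (SE 0.74, adjusted p = 0.629). B430119L08Rik, called by DESeq2 and sharing 429 exon bases with Serpina1c, stood at 286, 393, 276, 283, 35.8 and 4.68 CPM in Control and at 1.99 to 30.4 CPM in NaKtide, and Control replicate 6 lay within the NaKtide range. Gm12501, called by voom and sharing 528 bases with Gm40123, ranged from 3.25 to 5.92 CPM in Control and from 0 to 1.94 CPM in NaKtide, without overlap. The third gene called by DESeq2, the second entry with the symbol Aldoa (ENSMUSG00000114515), stood at 0 in the 6 Control libraries and at 105 CPM in NaKtide replicate 6, with at most 0.901 CPM in the other NaKtide libraries. Limma on log2(FPKM + 0.1) called Gm16019 and Gm21798, and on log2(FPKM + 1) Gm21798 alone, as lower in NaKtide. Both had 1 to 4 counts in each Control library, and 0 in the NaKtide libraries except for 1 count of Gm16019 in replicate 1, and they cannot be compared at this depth.

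The NaKtide difference in sham mice was set against that in nephrectomised mice, PNx + NaKtide over PNx, by a test of the interaction in the same fit. In edgeR 0 of 26116 genes (0.0%) passed an adjusted p under 0.1, whereas DESeq2 called 94 and voom 6593, and 2421 genes (9.27%) were at an unadjusted p under 0.05. Without NaKtide replicate 6 the latter were 1863 (7.13%), without PNx replicate 6 they were 2220 (8.5%), and without both they were 2400 (9.19%). H2-T24 had log2 fold changes of -1.82 (SE 0.52) in sham and 1.30 (SE 0.52) in nephrectomised mice, with an unadjusted interaction p of 0.000225. Srxn1 had -1.20 (SE 0.47) and 0.88 (SE 0.47), with an unadjusted interaction p of 0.00435, and Adipoq had 0.60 (SE 0.78) and -2.01 (SE 0.80), with 0.0262. For Adipoq this p was 0.128 without NaKtide replicate 6, 0.0883 without PNx replicate 6 and 0.375 without both. For H2-T24 and Srxn1 it was at most 0.000471 and 0.00764 in these fits. Both genes were named for a small p in sham mice, and the interaction contains that same difference. Their interaction p is thus not independent support. Src had -0.19 (SE 0.46) and 0.73 (SE 0.46), with an unadjusted interaction p of 0.162.

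For the lipid storage genes the contrast between the surgeries changed when single libraries were left out. PNx replicate 6 stood apart in markers as well, with an adipocyte list of 6170.1 CPM against 244 to 428 CPM in the other PNx libraries and an erythrocyte list of 1628 CPM against 21.7 to 60.6 CPM, and the part of these markers was not tested. Of the 21 lipid storage genes 14 were at an unadjusted interaction p under 0.05, and their median log2 fold changes were 1.09 in sham and -1.71 in nephrectomised mice. Without NaKtide replicate 6 there were 2 such genes, without PNx replicate 6 there was 1, and without both there were 5. Without PNx replicate 6 the median in nephrectomised mice was 0.65.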

How the data were processed

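RNA of adipose tissue from 24 mice was sequenced with stranded mRNA libraries (TruSeq) and paired reads of 50 bp. Sample labels gave the groups and the replicate numbers. Per the labels and the study's methods, the authors trimmed reads with Trimmomatic 0.38, aligned them to GRCm38 with HISAT2 2.1.0 and counted them per gene with GenomicAlignments 1.16.0. Neither annotation release nor strand setting is given in the sources used here. Raw counts were deposited by the authors and tested here, as were FPKM made from counts normalized with DESeq2 1.20.0, used for alternatives. Normalized counts were deposited as well and not used here.

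Genes with more than 10 counts over the 24 libraries were tested with edgeR 4.0.16 (R 4.3.3; quasi-likelihood F-test, robust, trimmed mean of M values) in 1 fit of 4 group means, with Benjamini-Hochberg adjustment over 26116 genes and a threshold of 0.1. The biological coefficient of variation was 71.4%. Alternatives were DESeq2 1.42.0, voom of limma 3.58.1 with sample weights, limma on log2(FPKM + 1) and log2(FPKM + 0.1), which understates the change of low genes, other scalings and filters, the 12 sham libraries alone, the replicate number as a block, and leaving out libraries. Library measures were compared by exact permutation. Opposite-strand overlap means at least 1 shared exon base in GENCODE M21 (bedtools 2.31.1), in which 54165 of 54232 identifiers (99.9%) were found. The scripts were tested on simulated counts. Limits of detection cover counting error only, whereas intervals of fold changes also hold the spread between mice, and reads without molecular identifiers are not independent molecules. The labels do not say more of the replicates than 1 number per mouse.

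The comparison, its genes and the 28 gene lists were chosen with earlier results of these data known. Named genes are 13 genes of the pump, Src and the fat cell, the leading protein-coding genes with a mean of at least 5 CPM over the sham libraries (8 per direction without and 4 with an opposite-strand overlap), the genes DESeq2 or voom called, and members of the lists. Further genes of the pump are not reported here. The same rule was applied without NaKtide replicate 6 after the values were seen.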

Additional observations from a re-analysis of the deposited data

Results flagged for a closer look

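In groups of 6, the highest or lowest library was set against the others by Dixon's ratio of the gap to the range, at its 95% critical value. Of 144 groups tested 42 were flagged, 35 of them in NaKtide replicate 6. Chance would flag about 1 in 20 groups, but this rate is no measure here. Many of the genes were named for a small p in these same libraries, and the quantities are not independent of each other.

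In NaKtide replicate 6 the muscle genes stood at 307 CPM for Tnni2, 1096 CPM for Tnnt3, 323 CPM for Acta1, 173 CPM for Myh8, 1819 CPM for Myh4, 138 CPM for Pygm, 131 CPM for Trdn, 145 CPM for Myh7, 185 CPM for Tnnc2, 109.9 CPM for Ryr1 and 21606 CPM for Rabep2, which lies opposite to Atp2a1. Further genes of the muscle lists stood there at 855 CPM for Myh1, 581 CPM for Myh2, 447 CPM for Ckm, 86.6 CPM for Myl1, 135 CPM for Mylpf, 159.7 CPM for Actn3, 98.9 CPM for Pvalb, 93.1 CPM for Casq1, 90.5 CPM for Eno3 and 219 CPM for Des, and the second Aldoa entry (ENSMUSG00000114515) stood at 105 CPM.

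Fat and vessel genes of the same library stood at 166 CPM for Adipoq, 1009 CPM for Fabp4, 42.7 CPM for Me1, 431 CPM for Egfl7, 16.2 CPM for Fxyd1 and 3.88 CPM for Prkca. Its summed lists were at 5046 CPM for adipocytes, 7517 CPM for skeletal muscle, 572 CPM for endothelium, 138 CPM for B cells, 245 CPM for erythrocytes and 41.4 CPM for epididymis, the last being the lowest of its group. Genes with an opposite-strand overlap took 86.5% of its counts.

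The other flags lay in single Control libraries and in NaKtide replicate 5. Control replicate 1 was high for Chuk at 4.18 CPM and for the erythrocyte list at 119.8 CPM, and low for the macrophage list at 334 CPM. Control replicate 5 was high for Tnni2 at 1.23 CPM and low for Myh7 at 0 CPM, both near the limit of detection, and Control replicate 6 was high for Zfp260 at 50.9 CPM. NaKtide replicate 5 was high for Gm11408 at 59.1 CPM.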

How the results depend on the processing

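Of 1803 values recomputed under alternatives 1737 kept their direction and side of the threshold, and 39 changed sign. For the comparison of NaKtide with Control, edgeR gave 0 adjusted calls under the other scalings, filters and left-out libraries, DESeq2 gave 3, voom 2, log2(FPKM + 0.1) 2 and log2(FPKM + 1) 1. Genes at an unadjusted p under 0.05 were 1650 in the sham libraries alone, 449 with the filterByExpr filter, which tests fewer genes, 2190 with voom, 960 without NaKtide replicates 4 and 5, and 759 to 1306 when single libraries were left out, the ends without Control replicate 2 and without NaKtide replicate 1. Genes with an interval within a 2-fold difference were 3739 in the sham libraries alone. The share of higher genes was 63.5% with DESeq2 size factors, 62.4% with DESeq2, 61.4% with voom, 24.2% with log2(FPKM + 0.1) and 29.3% with log2(FPKM + 1), against 51.6%. With DESeq2 the median over all genes was 0.11 on the log2 scale.

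The labels do not say whether replicate numbers pair the mice. The correlations of same-numbered deviations were 0.189, -0.137, -0.391, 0.239, -0.0623 and -0.0372, which cannot settle whether same-numbered mice were handled together. With the replicate block edgeR gave 0 adjusted calls, 901 genes at an unadjusted p under 0.05 (331 higher, 36.7%) and a median over all genes of -0.12, and 2 adjusted calls in the interaction. Log2 fold changes with the block were -0.27 for Fxyd1, -0.067 for Nos3 and -0.11 for Prkca.

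The interaction had 94 adjusted calls with DESeq2 and 6593 with voom, and 0 to 1 when single libraries were left out, the call arising without PNx replicate 4. At an unadjusted p under 0.05 it had 3734 genes with DESeq2 size factors, 1292 with filterByExpr, 8663 with voom, and 1863 to 3798 when single libraries were left out, the ends without NaKtide replicate 6 and without PNx replicate 4.

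Signs of small differences turned. With voom, the log2 fold change was 0.08 for Atp1b3, -0.28 for Fxyd1, -0.021 for Fabp4, -0.3 for Prkca, -0.79 for Myh1, -0.81 for Myh2, -0.055 for Myl1 and -0.25 for Actn3. With log2(FPKM + 0.1) it was -0.18 for Fxyd1, -0.023 for Prkca and -0.17 for Eno3, and with log2(FPKM + 1) -0.088 for Fxyd1. It was -0.0011 for Chuk with library size scaling and 0.14 for Atp1b3 without NaKtide replicates 4 and 5. Leaving out single libraries gave ranges of -0.14 to 1.07 for Chuk, -0.47 to 0.18 for Fxyd1, -0.42 to 0.86 for Adipoq and -2.95 to 1.37 for Prkca. For muscle genes they were -0.25 to 7.59 for Acta1, -0.47 to 4.04 for Actn3, -0.77 to 5.75 for Myh1, -0.96 to 5.51 for Myh2, -1.7 to 8.29 for Myh4, -1.39 to 4.93 for Myl1, 0.0 to 8.24 for Pvalb, -0.07 to 6.17 for Rabep2, -0.66 to 6.79 for Tnnc2, -0.23 to 8.85 for Tnnt3 and -2.4 to 6.26 for Trdn, the low ends without NaKtide replicate 6. The median of the adipokine list ranged from -0.24 to 1.03. The causes were not tested.

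Among library measures, the distance had a difference of 0.156 (exact p = 0.0368) over genes with a mean of at least 1 CPM. When single libraries were left out it was 0.0518 to 0.153. Over all alternatives the exact p ran from 0.00433 to 0.385, the low end without NaKtide replicate 2. That library had the smallest distance of its group, 0.36. The difference in total counts ranged from -617432 to -342589, and that in the opposite-strand share from -2.01 to 0.05 percentage points.

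Depth limits low genes most, as 3 counts are 1.27 to 4.42 per 1000000 counts of a library before normalisation. Genes with an opposite-strand partner, near-identical copies or pseudogenes cannot be assigned with certainty. The strand that was counted is not given, which bears on genes without a partner as well. NaKtide replicate 6 held the high values of muscle and fat genes, and replicates 4 and 5 those of many other higher genes.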
